A study of Mus musculus with 2 samples.

Results

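The 37 genes described here are the solute carriers and uptake receptors of the kidney proximal tubule, 34 members of the solute carrier (Slc and Slco) families and the endocytic receptor proteins Lrp2, Cubn and Amn. They were chosen by gene symbol from the gene table of the count matrices, and all 37 were found. The data are single-cell RNA sequencing of kidneys from male C57BL6/J mice aged 10 to 12 weeks, taken 72 h after saline or after cisplatin at 20 mg/kg, a platinum chemotherapy drug toxic to the tubule. Both groups went through magnetic beads against CD31, an endothelial surface protein, and then against podoplanin, a procedure for enriching lymphatic endothelial cells. Cells from 5 mice, with 10 kidneys per condition, were pooled into 1 library per group, so there was no replicate and no test across animals was possible. All intervals are 95% intervals for counting error alone.

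The proximal tubule reclaims most of what the glomerulus filters. Its brush border carries sodium-coupled carriers for phosphate, glucose, amino acids, sulfate, lactate and dicarboxylates, its basolateral side carries exit carriers and the bicarbonate cotransporter Slc4a4, and megalin (Lrp2) with cubilin (Cubn) and its anchor amnionless (Amn) takes up filtered protein. The early convoluted segments S1 and S2 use high-capacity carriers such as the glucose cotransporter Slc5a2, and the straight segment S3 uses high-affinity ones such as Slc5a1. Of the members, 10 were assigned to S1/S2, 8 to S3 and 19 to no segment, from textbook knowledge; Slc7a9 (placed in S1/S2) and Slc3a1 (placed in S3) are known in several segments.

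The saline library held 5879496 unique molecular identifiers (UMIs, 1 per captured transcript) and the cisplatin library 19994105. Barcodes, the tags of single droplets, were read in bands of depth: 197491 saline and 376309 cisplatin barcodes held 1 to 100 UMIs, and 630 and 3441 held 500 or more. The bands did not hold the same part of each library, since the 1 to 100 band carried 63.0% of the saline UMIs and 10.7% of the cisplatin UMIs, and the band between, with more than 100 and fewer than 500 UMIs, 17.8% and 66.9%. That band is called intermediate below, and barcodes of 500 or more UMIs with at most 20% mitochondrial UMIs are called deeper barcodes, or barcodes at depth. Mitochondrial transcripts made up 3.84% of saline and 30.6% of cisplatin UMIs in the 1 to 100 band. The 6 lymphatic markers summed to 18 and 81 UMIs in barcodes of 500 or more UMIs, with Mmrn1 at 0 in saline, against 5226 and 8587 UMIs of 8 blood endothelial markers, which goes against the lymphatic label of the cells. No barcode sequence held 500 or more UMIs in both libraries, and 23161 held at least 1 UMI in both.

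Each member's level is its CPM, the gene's UMIs per 1000000 UMIs of the band, and its ratio is cisplatin over saline. A gene was called higher or lower when that ratio was at least 1.5 either way and its interval left out 1, given at least 20 UMIs over both libraries. The relative ratio compares a member's share of the summed UMIs of all 37 members, and so shows which members were kept or lost against the set as a whole. The matrices count 3' ends of transcripts, so a level does not need correction for transcript length.

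In barcodes of 1 to 100 UMIs, which are taken as droplets with free RNA and no cell, the set as a whole was close to its saline level. Its 37 members summed to 34047 and 18750 UMIs, or 9192 CPM in saline and 8759 CPM in cisplatin, which gave 0.953 (0.936 to 0.97) as the ratio. The direction depended on the denominator: with mitochondrial UMIs left out the ratio was 1.32 (1.30 to 1.34). In the intermediate band the ratio was 0.893 (0.874 to 0.912), and 1.35 without mitochondrial UMIs. In barcodes of 500 or more UMIs the set was at 1432 CPM in saline and 4767 CPM in cisplatin, with 3.33 (3.16 to 3.50) as the ratio, and with at most 20% mitochondrial UMIs at 1429 CPM in saline and 5063 CPM in cisplatin, with 3.54 (3.36 to 3.73) as the ratio. The mix of cells moved with that ratio. Of these barcodes, 418 of 630 in saline and 256 of 3441 in cisplatin held at least 3 UMIs of the blood endothelial markers, a class set after values were seen. Without such barcodes the set's ratio was 0.953 at any mitochondrial share and 1.18 (1.11 to 1.25) at up to 20%, on 209 and 1520 barcodes.

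**Figure D1:**
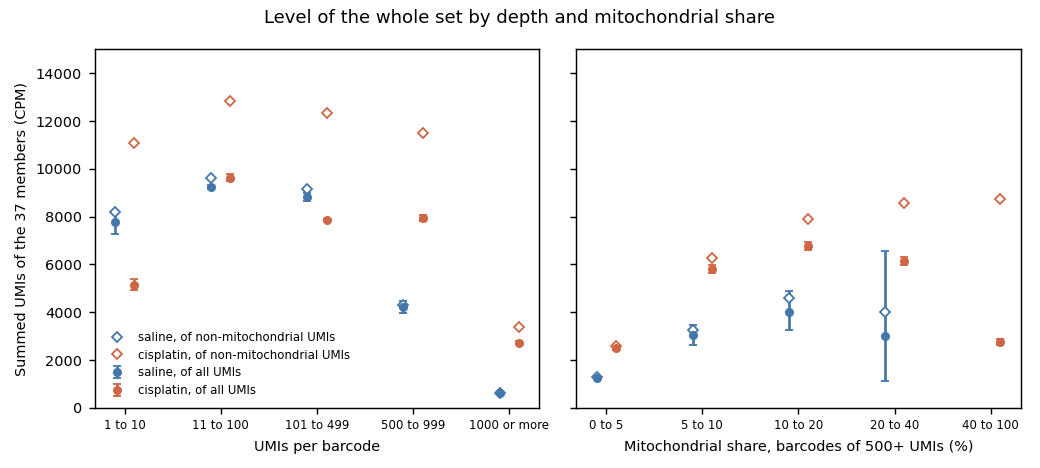
Summed level of the 37 members (CPM) in each library by UMIs per barcode (left) and, for barcodes of 500 or more UMIs, by mitochondrial share (right). Filled circles use all UMIs as denominator, with exact 95% counting intervals; open diamonds use non-mitochondrial UMIs. In barcodes of 11 to 100 UMIs the filled circles lie at 9242 (saline) and 9639 (cisplatin), and the saline set falls to 614 in barcodes of 1000 or more.

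**Figure D2:**
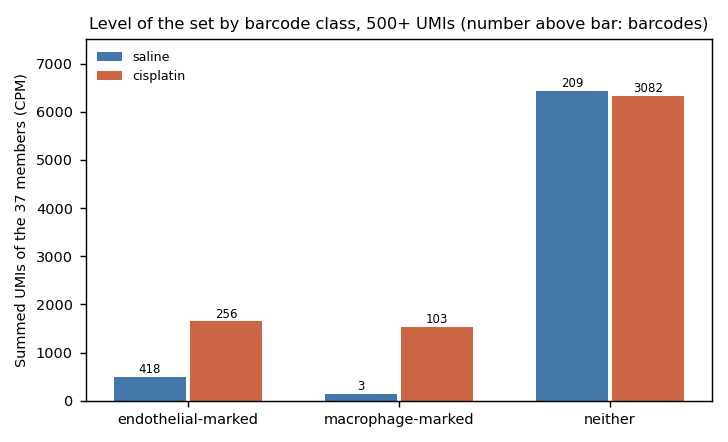
Summed UMIs of the 37 members (CPM) in barcodes of 500 or more UMIs, by barcode class; bars have no error bars and the number above each is its barcodes. In barcodes with neither marker the bars stand at 6431 in saline and 6328 in cisplatin, while endothelial-marked barcodes stand at 492 and 1647.

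Single members differed more than the set. By CPM, 3 of the 37 members were called higher and 7 lower in the 1 to 100 band, where 14.4% of 12375 measured genes were called higher and 20.7% lower. Relative to the set, 4 were called higher and 7 lower, against 17% and 18.2% of all genes, so neither count stood far from the background. The median member had a CPM ratio of 1.03 and the median of all genes was 0.95. In the intermediate band 3 members were called higher and 8 lower by CPM (background 8.46% and 22.2%), and 5 and 4 relative to the set (background 12.4% and 16.8%). In barcodes of 500 or more UMIs 35 of 37 were called higher and 0 lower by CPM (background 21% and 24.4%), and with at most 20% mitochondrial UMIs 34 of 36 measured and 0 (background 25.8% and 15.3%). Without endothelial-marked barcodes those counts were 3 higher and 2 lower of 35 measured (background 4.97% and 7.76%). Relative to the set, 4 were called higher and 6 lower at 500 or more UMIs, and 3 and 6 at up to 20% mitochondrial UMIs. The matching shares of all genes were 1.49% and 73.6%, and 1.78% and 74.1%; they are lopsided because the set itself was higher in cisplatin, so they give no scale for the members' counts.

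Across the 4 bands 1 member, Slc6a18, was called higher relative to the set in every one, and 3 members, Lrp2, Slc5a12 and Slc7a13, were called lower in every one. The share of all genes called the same way in all 4 bands was not computed. At 500 or more UMIs 73.6% of all genes were called lower relative to the set, and 74.1% at up to 20% mitochondrial UMIs. A lower call there was therefore the usual one. The bands are not 4 separate readings. Barcodes with at most 20% mitochondrial UMIs are a part of those of 500 or more, and held 1610 of their 1616 saline member UMIs. The largest member, Slc34a1, was called in none. Calls are described below by the members' roles. Counts by role at 1 to 100 UMIs stand beside 17% of all genes called higher and 18.2% lower relative to the set. Readings are given at 1 to 100 UMIs, for some members as a range. For part of the members, including each one called there, they are also given at 500 or more UMIs with at most 20% mitochondrial UMIs.

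**Figure D3:**
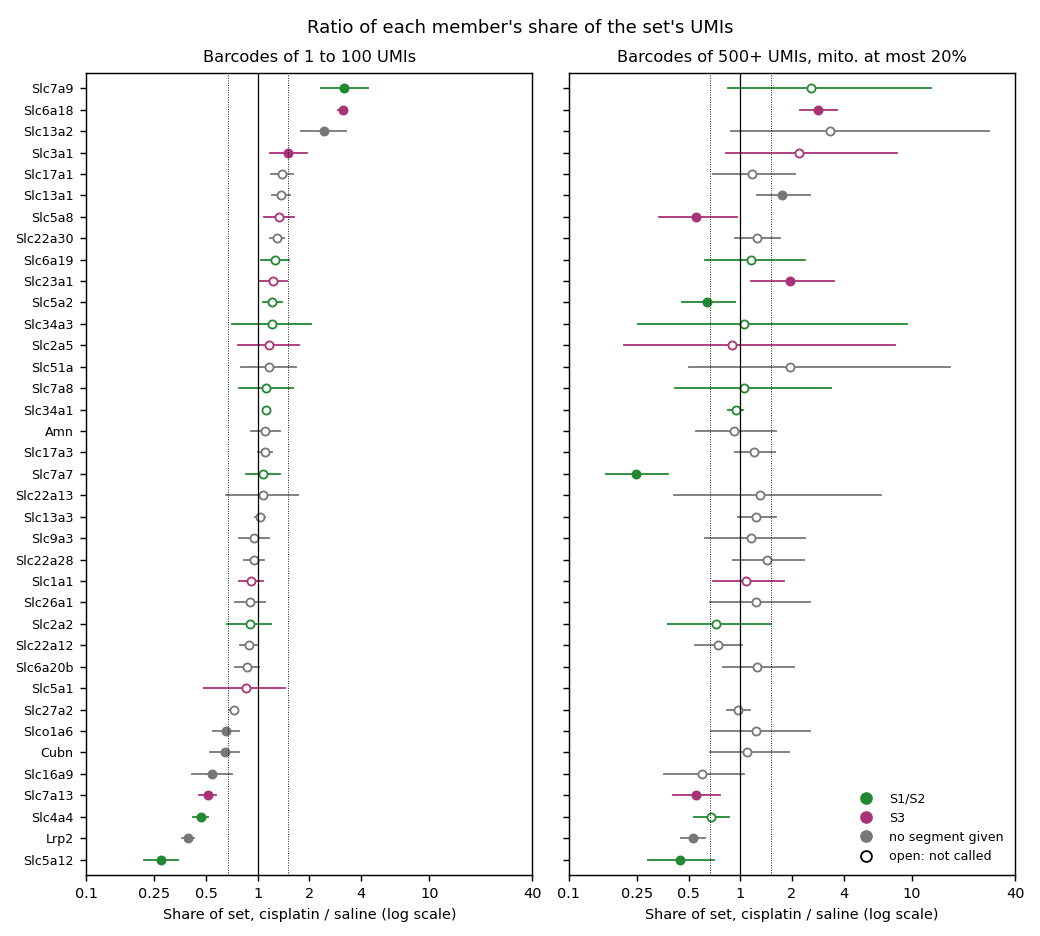
Relative ratio of each member (cisplatin over saline share of the set's UMIs, log axis) with exact 95% counting intervals, coloured by segment and ordered by the 1 to 100 band; filled points are called, dotted lines mark a factor of 1.5, and Slc5a1 has no point at right because saline held 0 UMIs. Slc5a12 (0.274) and Lrp2 (0.391) lie lowest and Slc6a18 (3.13) near the top at left, and all are called in the same direction at right.

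Neither phosphate carrier was called in the 1 to 100 band or at depth. Slc34a1, the main sodium phosphate cotransporter of the brush border (chromosome 13, 55398187 to 55415592, plus strand), had 9271 UMIs in saline and 5668 in cisplatin in the 1 to 100 band, or 27.2% and 30.2% of the set. Its relative ratio was 1.11 (1.07 to 1.15), and 0.938 (0.848 to 1.04) in the deeper barcodes, so it was called in neither. Slc34a3, the second renal phosphate cotransporter, held 39 and 26 UMIs and had a relative ratio of 1.21 (0.708 to 2.04).

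Sugar carriers gave 1 call between them at depth. Slc5a2, the high-capacity glucose cotransporter SGLT2 of S1/S2, had 597 UMIs in saline and 400 in cisplatin in the 1 to 100 band and a relative ratio of 1.22 (1.07 to 1.38). In deeper barcodes it had 39 and 226 UMIs and a relative ratio of 0.643 (0.456 to 0.928), called lower. With a minimum of 1000 UMIs that ratio was 1.12, so the call did not hold there. Slc5a1, the high-affinity cotransporter SGLT1 of S3, had 47 and 22 UMIs in the 1 to 100 band and a relative ratio of 0.85 (0.488 to 1.44). In barcodes of 500 or more UMIs of any mitochondrial share it was not seen in saline and had 64 UMIs in cisplatin, a relative ratio of at least 1.62 by a floor of 3 UMIs; with at most 20% mitochondrial UMIs it had 35 UMIs and no call. The saline share of barcodes with a Slc5a1 UMI was 0 of 627, which allows up to 0.587% (exact bound), and the cisplatin share was 1.33% (0.845 to 1.99). In endothelial-marked cisplatin barcodes, which should lack the gene, it was 1.91% (0.524 to 4.83), at a median of 2164 UMIs against 746, so the share does not stand above background. The fructose carrier Slc2a5 had 64 and 41 UMIs, and the basolateral glucose exit carrier Slc2a2 had 144 and 71 UMIs, with relative ratios of 1.16 and 0.895. Slc2a5 was the 1 member under the minimum in barcodes of at most 20% mitochondrial UMIs, with 2 and 16 UMIs.

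Slc5a12 was the lowest of all 37 members at 1 to 100 UMIs and held most of the difference in the sum of the 3 monocarboxylate carriers there. The group held 1070 and 332 UMIs in the 1 to 100 band, a relative ratio of 0.563 (0.497 to 0.638), and 0.52 (0.396 to 0.692) in deeper barcodes. Without Slc5a12 the other two gave 0.917 (0.783 to 1.07) at 1 to 100 UMIs and 0.576 (0.403 to 0.842) at depth. Slc5a12, the low-affinity lactate cotransporter of the early segments (chromosome 2, 110597298 to 110647779, plus strand), had 589 UMIs in saline and 89 in cisplatin, or 159 and 41.6 CPM. Its relative ratio of 0.274 (0.217 to 0.343) was the lowest of the members in that band, and over all barcodes together it was 0.321 (0.291 to 0.353). In the deeper barcodes 27 and 108 UMIs gave 0.444 (0.289 to 0.704). Slc16a9, a carnitine and monocarboxylate carrier, had 251 and 75 UMIs and 0.543 (0.413 to 0.705), called lower there, and 0.598 (0.359 to 1.05) in the deeper barcodes, not called. Slc5a8, the S3 lactate cotransporter, went the other way between bands: 1.33 (1.08 to 1.63) at 1 to 100 UMIs, not called, and 0.555 (0.336 to 0.962) on 19 and 95 UMIs in deeper barcodes, called lower. At a minimum of 1000 UMIs its ratio was 1.16.

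Amino acid carriers summed to a higher share of the set, a direction that turned at 1 to 100 UMIs when Slc6a18 was left out. The 9 members held 4657 and 4217 UMIs in the 1 to 100 band and a relative ratio of 1.64 (1.58 to 1.71), with 3 called higher, 1 lower and 5 neither. Without Slc6a18 the other 8 members held 3046 and 1441 UMIs and turned to a relative ratio of 0.859 (0.806 to 0.915). At depth the group was at 1.43 (1.25 to 1.65) with it and 0.795 (0.67 to 0.949) without. With endothelial-marked barcodes left out at depth, the 8 members were at 0.927 (0.747 to 1.16), an interval that held 1. Slc6a18, the brush border carrier B0AT3 for glycine and alanine (chromosome 13, 73661752 to 73678023, minus strand), had 1611 UMIs in saline and 2776 in cisplatin, or 435 and 1297 CPM. Its relative ratio was 3.13 (2.94 to 3.33) there, 3.31 (2.99 to 3.68) in the intermediate band and 2.83 (2.22 to 3.65) in the deeper barcodes. Cisplatin barcodes of 500 or more UMIs with at most 20% mitochondrial UMIs held a Slc6a18 UMI in 53.2% (50.8 to 55.5), against 8.77% (6.68 to 11.3) in saline. Thinned to 500 UMIs per barcode the shares were 39.0% and 5.90%. Barcodes with endothelial markers, which should lack it, held it in 45.9% (39.0 to 52.9) and 3.83% (2.20 to 6.14), so the shares differed there in the same direction. The saline barcodes were mostly endothelial-marked, and in barcodes without that mark the shares were 54.1% (51.6 to 56.7) in cisplatin and 18.7% (13.6 to 24.6) in saline, or 42.4% and 13.9% thinned. Its neighbour Slc6a19 (chromosome 13, 73679745 to 73704865, minus strand), the main neutral amino acid carrier B0AT1, had 269 and 187 UMIs and a relative ratio of 1.26 (1.04 to 1.53), not called in any band.

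Slc7a9 and Slc3a1 encode the light and heavy chains of the brush border cystine carrier. Slc7a9 (chromosome 7, 35448796 to 35466036, plus strand) had 67 UMIs in saline and 118 in cisplatin, or 18.1 and 55.1 CPM, and a relative ratio of 3.20 (2.35 to 4.38). Slc3a1 had 146 UMIs in saline and 121 in cisplatin and a relative ratio of 1.505 (1.17 to 1.93), close to the 1.5 limit. Both were also called higher in the intermediate band, with 3.23 and 1.67. In the deeper barcodes saline held 3 and 4 UMIs, and their relative ratios of 2.59 (0.85 to 12.9) and 2.19 (0.823 to 8.24) were not called. Slc7a13, another light chain that pairs with Slc3a1 in S3, differed in direction from both: 1304 UMIs in saline and 366 in cisplatin gave 0.51 (0.453 to 0.573), and in the deeper barcodes 51 and 252 UMIs gave 0.548 (0.404 to 0.756). Slc7a7, the basolateral carrier for cationic amino acids, had 212 and 126 UMIs in the 1 to 100 band and a relative ratio of 1.08 (0.859 to 1.35). It was called higher in the intermediate band (1.52 (1.11 to 2.15)) and lowest of all at depth (0.247 (0.164 to 0.38), 35 and 78 UMIs). Of its 35 saline UMIs at depth, 31 lay in endothelial-marked barcodes, and without those barcodes its relative ratio was 1.27 (0.471 to 4.83). The glutamate carrier Slc1a1, the proline carrier Slc6a20b and the basolateral neutral carrier Slc7a8 lay between 0.866 and 1.12 in the 1 to 100 band and were not called.

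Among sulfate and dicarboxylate carriers, 1 of 4 was called higher in the 1 to 100 band and none lower. Slc13a2, the brush border citrate and succinate carrier NaDC1 (chromosome 11, 78397087 to 78422217, minus strand), had 81 UMIs in saline and 108 in cisplatin, or 21.9 and 50.5 CPM, and a relative ratio of 2.42 (1.80 to 3.27). In the intermediate band it was 2.81 (1.72 to 4.96), called higher as well; saline held 2 of its UMIs at depth. Slc13a1, the brush border sulfate carrier, had 617 and 463 UMIs and 1.36 (1.21 to 1.54) in the 1 to 100 band, under the limit of 1.5. In the deeper barcodes 36 and 570 UMIs gave 1.76 (1.25 to 2.53), called higher, and without endothelial-marked barcodes 1.74 (1.17 to 2.68). The basolateral dicarboxylate carrier Slc13a3 (1992 and 1131 UMIs, 1.03) and the basolateral sulfate exchanger Slc26a1 (299 and 149 UMIs, 0.905) were not called.

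The 7 urate and organic anion carriers summed to a share close to their saline one, at 1.07 (1.02 to 1.12) in the 1 to 100 band and 1.13 (0.981 to 1.31) at depth. Slco1a6, an organic anion carrier, was the 1 called member, lower at 0.655 (0.545 to 0.783) on 466 and 168 UMIs; at depth it was 1.24 and not called. Slc17a1 and Slc17a3, anion carriers of the brush border, had 420 and 322 UMIs and 1137 and 690 UMIs, with relative ratios of 1.39 (1.20 to 1.61) and 1.10 (1.001 to 1.21). The urate exchanger Slc22a12 was at 0.883 (0.784 to 0.995). Slc22a13, Slc22a28 and Slc22a30 lay between 0.952 and 1.29. Slc22a28, Slc22a30, Slco1a6 and Slc6a20b have close paralogs, so their counts may share reads with those and are uncertain.

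Among acid-base carriers, Slc4a4, the basolateral sodium bicarbonate cotransporter (chromosome 5, 88886818 to 89239653, plus strand), had 1898 UMIs in saline and 487 in cisplatin, or 512 and 228 CPM. Its relative ratio was 0.466 (0.421 to 0.515) in the 1 to 100 band and 0.443 (0.404 to 0.486) in the intermediate band, called lower in both. At depth 87 and 530 UMIs gave 0.676 (0.538 to 0.858), just short of the limit. Slc9a3, the brush border sodium hydrogen exchanger NHE3, was not called, with 282 and 148 UMIs and 0.953 (0.776 to 1.17). The vitamin C carrier Slc23a1 had 292 and 197 UMIs and 1.23 (1.02 to 1.47), and was called higher at depth on 15 and 262 UMIs with 1.94 (1.15 to 3.51); without endothelial-marked barcodes that was 1.36 (0.806 to 2.47), not called. Slc27a2, a fatty acid carrier and acyl-CoA synthetase, had 3502 UMIs in saline and 1397 in cisplatin and 0.724 (0.68 to 0.771), not called, and 0.971 (0.833 to 1.14) at depth. The basolateral bile acid and steroid carrier subunit Slc51a had 80 and 51 UMIs and 1.16 (0.798 to 1.67).

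Of the uptake receptors, megalin and, in the shallowest band, cubilin were called lower, and amnionless was not. Lrp2 (chromosome 2, 69424340 to 69586065, minus strand, 79 exons) had 3822 UMIs in saline and 824 in cisplatin in the 1 to 100 band, or 1032 and 385 CPM, and a relative ratio of 0.391 (0.363 to 0.422). The relative ratio was 0.394 (0.37 to 0.42) in the intermediate band and 0.529 (0.451 to 0.623) at depth. By CPM Lrp2 was higher in cisplatin at depth, at 164 in saline and 308 in cisplatin. At depth without endothelial-marked barcodes its relative ratio was 0.522 (0.434 to 0.631) and its CPM ratio 0.615 (0.512 to 0.743). Cubn (chromosome 2, 13276338 to 13491813, minus strand) had 425 UMIs in saline and 150 in cisplatin, or 115 and 70.1 CPM, and 0.641 (0.528 to 0.774), called lower at 1 to 100 UMIs only; in the intermediate band it was 0.737 (0.609 to 0.9) and at depth 1.10 (0.665 to 1.93) on 17 and 168 UMIs. Amn, which anchors cubilin in the membrane, was not called, at 270 and 165 UMIs and 1.11 (0.909 to 1.35). Together the receptors held 4517 and 1139 UMIs, a relative ratio of 0.458 (0.429 to 0.489), and 0.603 (0.522 to 0.7) at depth.

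The promoters of 4 members are shown: Slc34a1, the largest member, Slc3a1 and Slc13a2, called higher, and Lrp2, called lower. All but Lrp2 were picked among members with a match to a motif named below. They are therefore no sample of the called members. Each sequence is the 250 bases before a RefSeq transcript start (GRCm38.p6), 5′ to 3′ along the gene's strand, with capitals for matches on either strand to the HNF1 half-site GTTAAT, the HNF4 motif CAAAGTCCA or the TATA box TATAAA. They lie at chr13:55399398-55399647, plus strand, at chr17:85028097-85028346, plus strand, at chr11:78422235-78422484, minus strand and at chr2:69586030-69586279, minus strand.
Slc34a1: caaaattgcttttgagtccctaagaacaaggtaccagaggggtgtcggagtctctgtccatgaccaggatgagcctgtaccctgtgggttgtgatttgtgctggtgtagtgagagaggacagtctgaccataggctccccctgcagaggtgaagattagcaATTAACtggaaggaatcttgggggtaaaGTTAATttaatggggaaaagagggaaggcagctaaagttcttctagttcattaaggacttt
Slc3a1: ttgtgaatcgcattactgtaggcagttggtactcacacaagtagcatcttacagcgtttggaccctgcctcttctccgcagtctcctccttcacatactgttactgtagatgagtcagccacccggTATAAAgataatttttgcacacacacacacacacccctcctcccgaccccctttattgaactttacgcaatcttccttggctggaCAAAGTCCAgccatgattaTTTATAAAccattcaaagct
Slc13a2: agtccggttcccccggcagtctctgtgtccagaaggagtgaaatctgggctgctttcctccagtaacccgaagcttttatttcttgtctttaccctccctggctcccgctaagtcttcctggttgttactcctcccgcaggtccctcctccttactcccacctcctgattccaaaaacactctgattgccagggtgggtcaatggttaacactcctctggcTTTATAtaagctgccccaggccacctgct
Lrp2: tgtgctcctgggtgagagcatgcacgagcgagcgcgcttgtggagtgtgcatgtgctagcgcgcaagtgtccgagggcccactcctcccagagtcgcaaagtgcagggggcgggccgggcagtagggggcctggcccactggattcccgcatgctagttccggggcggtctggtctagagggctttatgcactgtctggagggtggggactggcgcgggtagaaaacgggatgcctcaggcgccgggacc

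An HNF1 half-site was found at 2 places in Slc34a1, and an HNF4 motif with overlapping TATA matches in Slc3a1. Slc13a2 held a TATA match on the opposite strand near its start, and the Lrp2 window held none of these letters. Of 32851 promoters in the table, 6.43% held the HNF1 letters, 0.384% the HNF4 letters and 12.4% the TATA letters. Of the 39 promoters matched to 31 members, 2, 1 and 3 held them. HNF1 and HNF4 factors are known regulators of proximal tubule genes; a match here is a description of letters only.

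The S3 members summed to a larger share against the S1/S2 members in cisplatin, and the size of that difference depended on Slc6a18 and Slc34a1. In the 1 to 100 band the 8 S3 members gave 0.316 UMIs per S1/S2 UMI in saline and 0.543 in cisplatin, or 1.72 (1.63 to 1.81) as the ratio of cisplatin to saline. Without Slc6a18 and Slc34a1, the top member of each segment, it was 1.13 (1.03 to 1.24). With 4 genes a side (Slc5a1, Slc2a5, Slc7a13 and Slc5a8 against Slc5a2, Slc5a12, Slc2a2 and Slc6a19) it turned to 0.777 (0.684 to 0.883). At depth, with at most 20% mitochondrial UMIs, the 3 values were 1.98 (1.67 to 2.35), 1.47 (1.15 to 1.87) and 0.935 (0.667 to 1.31). With endothelial-marked barcodes also left out they were 1.90 (1.55 to 2.33), 1.24 (0.928 to 1.66) and 1.10 (0.738 to 1.64). The interval without Slc6a18 and Slc34a1 then held 1. Of the 8 S3 members 2 were called higher relative to the set at 1 to 100 UMIs (Slc6a18, Slc3a1) and 1 lower (Slc7a13). Of the 10 S1/S2 members 1 was called higher (Slc7a9) and 2 lower (Slc5a12, Slc4a4). Of all genes 17% were called higher and 18.2% lower in that band, so these small counts show no difference between the segments. Since Slc7a9 is known in several segments, the S1/S2 call in the higher direction rests on where it was placed, and without it no S1/S2 member was called higher. The 7 basolateral carriers gave 0.797 (0.757 to 0.84) relative to the set, and Slc4a4 was the 1 called among them.

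**Figure D4:**
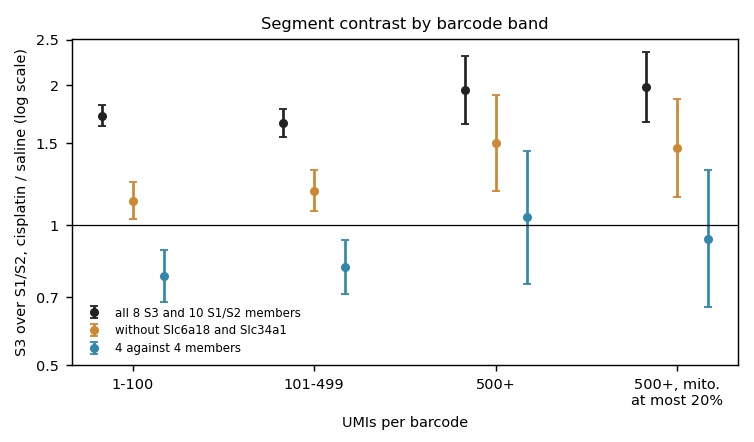
Ratio of cisplatin to saline for summed S3 over summed S1/S2 UMIs (log axis) by barcode band, with 95% counting intervals. With all members the points lie above 1 in each band, and with 4 genes a side the point at 1 to 100 UMIs is 0.777, below 1.

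The 20% mitochondrial limit removed 3 of 630 saline and 1712 of 3441 cisplatin barcodes of 500 or more UMIs. In cisplatin the set was at 5063 CPM at or under the limit and 4238 CPM over it, a ratio of 0.837 (0.813 to 0.862), and 1.56 (1.52 to 1.61) without mitochondrial UMIs. Between these 2 parts of the cisplatin library 32 of 37 members were not called relative to the set, 4 were called higher over the limit and 1 lower, where 1.15% of 11833 measured genes were called higher and 41% lower. Since the set itself differed between the parts once mitochondrial UMIs were left out, those shares are lopsided. Slc5a1 (1.76), Slc2a5 (2.39), Slc3a1 (1.51) and Slc9a3 (1.52) took a larger share over the limit, and Slc22a13 (0.304, 35 and 5 UMIs) a smaller one. Lrp2 was at 0.956 (0.847 to 1.08). With or without the limit the same 6 members were called lower relative to the set (Lrp2, Slc5a12, Slc5a2, Slc5a8, Slc7a13 and Slc7a7), and Slc13a1, Slc23a1 and Slc6a18 were called higher in both.

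Barcodes gated on 19 other proximal tubule genes, with at least 5% of their non-mitochondrial UMIs from that list, were 13 in saline and 162 in cisplatin, too few in saline for single members. The set stood at 14185 and 4545 CPM in them, a ratio of 0.320 (0.276 to 0.373), and 0.815 (0.702 to 0.949) without mitochondrial UMIs; with at most 20% mitochondrial UMIs, on 13 and 23 barcodes, it was 0.883 (0.732 to 1.07). The list itself made up 3.27% and 3.16% of non-mitochondrial UMIs in the 1 to 100 band.

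The called members differed in gene length, given here as a description over genes that share libraries. Lrp2, Cubn and Slc4a4, the 3 longest transcripts (15460, 11262 and 7931 bases in GENCODE vM21), were all called lower at 1 to 100 UMIs. The 7 members called lower had a median transcript of 3756 bases and a median gene span of 122761 bases, against 2341 and 21186 for the 4 called higher and 3092 and 30719 for the 26 others. Spearman's rho between relative ratio and transcript length was -0.361 over 37 members at 1 to 100 UMIs and -0.228 over 35 at depth. Malat1, a nuclear long non-coding RNA, made up 10.5% of saline and 2.22% of cisplatin UMIs at 1 to 100 UMIs. It made up 13.3% and 2.78% in the intermediate band and 5.74% and 5.61% at depth. At depth without endothelial-marked barcodes it made up 10.4% and 7.04%, a ratio of 0.675 (0.665 to 0.686). The part of length or nuclear RNA in the members' ratios was not tested. Slc5a12, the lowest member, had 3529 bases, above the median of the uncalled members, and Slc7a13, also called lower, had 2141 bases, below it.

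**Figure D5:**
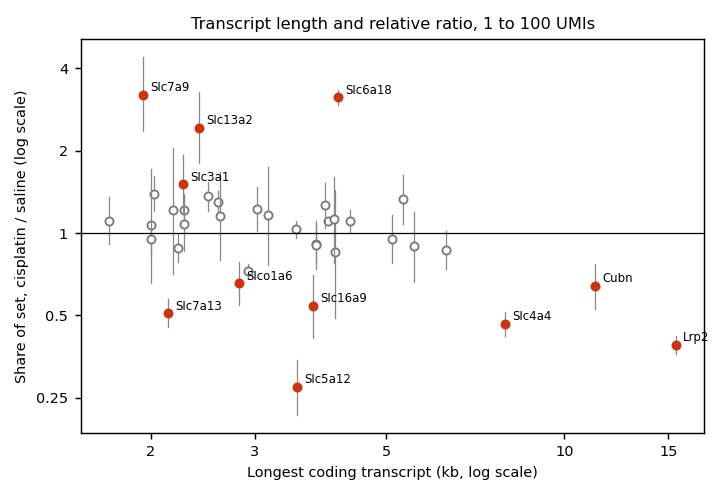
Relative ratio at 1 to 100 UMIs (log axis) against the longest coding transcript of each member (kb, log axis), with 95% counting intervals; red filled points are called members. Lrp2, Cubn and Slc4a4 lie at right below 1, and Slc7a13 (2141 bases) lies below 1 among the shorter transcripts.

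Other genes of the pathway gave the wider picture. In the 1 to 100 band 17% of all genes were called higher and 18.2% lower relative to the set. Of 31 other transport genes 30 were measured there, with 6 called higher and 1 lower. Their sum had a relative ratio of 1.001 (0.98 to 1.02). Slc38a3, a basolateral glutamine carrier, had 13 and 35 UMIs and a relative ratio of 4.89 (2.52 to 10.1), and Slc6a13, a betaine and GABA carrier, 232 and 264 UMIs and a relative ratio of 2.07 (1.73 to 2.48). Of the 19 other proximal tubule genes 3 were called higher and 3 lower, and the sum was at 0.732 (0.724 to 0.739); Cyp2j5, a cytochrome P450, had 893 and 233 UMIs and a relative ratio of 0.474 (0.408 to 0.548), and Acy3, an aminoacylase, 772 and 801 UMIs and a relative ratio of 1.88 (1.70 to 2.08). At depth Slc3a2, the heavy chain that pairs with Slc7a7 and Slc7a8, had 161 and 423 UMIs and a relative ratio of 0.291 (0.243 to 0.352). Dab2, the adaptor of megalin uptake, had 125 and 433 UMIs and a relative ratio of 0.384 (0.314 to 0.473). The median of all genes relative to the set was 0.320 there, so both lay near it. By CPM neither was lower, with ratios of 1.03 (0.859 to 1.25) for Slc3a2 and 1.36 (1.11 to 1.67) for Dab2. Both are also made by cells other than tubule cells. The CPM ratio of the other proximal tubule list at 1 to 100 UMIs was 0.697 (0.69 to 0.705), below the 0.953 of the members, and their intervals did not overlap. Gpx3, a secreted glutathione peroxidase, held 71682 of the list's 116557 saline UMIs, and without it that ratio was 0.809 (0.796 to 0.822).

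Markers of other cell types and of tubule injury differed between the libraries too. The 5 injured tubule genes were 15.5-fold higher in cisplatin at 1 to 100 UMIs and 56.2-fold higher at depth. The 6 macrophage genes were 19.2-fold higher at depth. Without endothelial-marked barcodes the ratios at depth were 14.8 (12.0 to 18.4) for the injured tubule genes and 5.67 (4.37 to 7.51) for the macrophage genes. Blood endothelial markers made up 0.464% and 0.272% of UMIs at depth. Their part in the members' ratios was not tested beyond the values without endothelial-marked barcodes.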

How the data were processed

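The authors deposited raw UMI counts per gene and barcode, unfiltered and not normalized, as 10x matrices; per the submitters' processing notes, Cell Ranger 6.0.1 and mm10 were used, while the file headers carry the mark of version 4. Per the labels' protocols, the kit was a droplet kit for transcript 3' ends. The sources used here do not say whether counting used strand; 13 of the 37 members share exon bases with a gene on the opposite strand, among them Slc34a1 (11.7% with Pfn3), Slc3a1 (26.5% with Prepl) and Slc13a2 (26.2% with Slc13a2os), so their counts could mix if it did not.

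UMIs were summed per library and band in Python 3.11.15 (numpy 2.4.6, scipy 1.17.1, pandas 2.3.3). Ratios have exact (Clopper-Pearson) conditional binomial 95% intervals; S3 over S1/S2 has a log-normal one. With 1 library per group no test was run. The scripts were tested on simulated data. Called genes needed 20 UMIs over both libraries and a ratio of 1.5; a gene at 0 was set to a floor of 3 UMIs. Endothelial-marked barcodes held at least 3 UMIs of the 8 blood endothelial markers, so deeper barcodes met this more easily, and macrophage-marked ones at least 2 UMIs of 6 macrophage genes. No doublet caller was run, and no barcode was removed as a doublet. Positions and lengths are from GENCODE vM21 (GRCm38, the build of mm10), and promoters from RefSeq (GRCm38.p6), which matched 31 of 37 members.

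The genes named in full were, in each band, the 6 members highest and the 6 lowest relative to the set by the interval bound nearest 1, with Lrp2, Cubn, Slc34a1, Slc5a2, Slc5a1 and Slc7a13 always, and at most 6 other genes by the same bound; other members were given by role. Members, lists, segments and rules were chosen with earlier results of these data known. Alternatives covered the UMI bands, the mitochondrial limit, a gene minimum, the denominator, the fold, the reference of relative ratios, the segment lists and the gate.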

Additional observations from a re-analysis of the deposited data

How the results depend on the processing

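Where a value changed, the cause was not tested unless the setting itself names it. Counts of called members under these settings have no share of all genes beside them, unless one is given above. They show how the calls moved and are not a result about the members. At 1 to 50 UMIs the set's CPM ratio was 0.616, with 20 members called lower by CPM and 4 lower relative to the set. At 10 to 100 UMIs it was 1.04, above 1, with 5 members higher by CPM. Without mitochondrial UMIs in the denominator the 1 to 100 band gave 1.32, with 13 higher and 3 lower, and barcodes of 500 or more UMIs gave 4.26 at any mitochondrial share and 3.78 at up to 20%. In those 2 bands, in that order, a minimum of 300 UMIs gave ratios of 2.26 and 2.44, with 7 and 7 members higher relative to the set. A minimum of 1000 UMIs gave 4.44 and 4.54, with 1 and 1 lower by CPM, 3 and 3 lower relative to the set, and S3 over S1/S2 at 2.58 and 2.65. At that minimum Slc5a2 turned to 1.18 and 1.12, and Slc5a8 to 1.13 and 1.16. At least 250 genes per barcode gave 3.54 at any mitochondrial share. A 10% mitochondrial limit gave 2.96 and 5 members higher relative to the set. At a fold of 2, the 1 to 100 band had 4 lower by CPM and 3 lower relative to the set, and the deeper bands 2 and 1 higher and 2 and 2 lower.

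Read against the other proximal tubule genes in place of the set, 17 members were higher and 3 lower at 1 to 100 UMIs, 14 and 2 at 500 or more, and 18 and 1 at up to 20% mitochondrial UMIs, where Slc5a2 was at 1.003. The sum of that list had itself a CPM ratio of 0.697 at 1 to 100 UMIs, so genes of any kind are more readily called higher against it. Without Kap in that list the counts were 17 and 3, 14 and 2, and 17 and 1. Without Gpx3, the list's most abundant gene and an alternative chosen after seeing the data, they were 8 and 5, 12 and 2, and 12 and 2. Leaving out endothelial-marked barcodes, an alternative chosen after seeing the data, gave a ratio of 0.953 at any mitochondrial share, with 2 members higher and 5 lower by CPM and 2 higher relative to the set. At up to 20% it gave 1.18, with 3 higher and 2 lower by CPM; Slc7a7 turned to 1.46 and 1.27. S3 over S1/S2 was 0.777, 1.04 and 0.935 in the 3 bands with 4 genes a side, and 1.13, 1.501 and 1.47 without the top members. In gated barcodes a gate of 2.5% gave 0.71 and a 20% mitochondrial limit 0.883; a gate of 10% held no saline barcode and gave no ratio. Thinned to 500 UMIs, 41.8% of saline and 87.6% of cisplatin barcodes held a member UMI. No barcode sequence was deep in both libraries, so removing shared ones changed nothing.

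Over all settings, 52 of 66 readings of called members kept their call at 1 to 100 UMIs, 59 of 81 at 500 or more and 65 of 90 at up to 20% mitochondrial UMIs. In the same order, 14, 19 and 21 readings lost their call, and 0, 3 and 4 were reversed in direction. No paired analysis was possible because each group had 1 library. With 1 library a group, differences between animals, bead yields or sequencing depth cannot be told apart from cisplatin, and saline counts at depth were low (under 5 UMIs for 8 members).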

Other observations

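The members' shares of the set were also compared within each library, between deep barcodes (500 or more UMIs, at most 20% mitochondrial) and barcodes of 1 to 100 UMIs. In cisplatin the vitamin C carrier Slc23a1 took a larger share in the deep barcodes (1.72 (1.42 to 2.08)), as did the sulfate carrier Slc13a1 (1.59 (1.40 to 1.80)), the lactate carrier Slc5a12 (1.57 (1.17 to 2.10)) and Slc16a9 (1.67 (1.22 to 2.29)). Slc5a1 was at 2.06 (1.17 to 3.68) on 22 and 35 UMIs. Megalin (Lrp2) was at 1.38 (1.26 to 1.52), cubilin (Cubn) at 1.45 (1.15 to 1.82) and Slc4a4 at 1.41 (1.24 to 1.59), under a factor of 1.5 but with intervals above 1. Slc34a1 (0.821 (0.787 to 0.856)) and Slc6a18 (0.818 (0.77 to 0.869)) took smaller shares in the deep barcodes. In saline Lrp2 was at 1.02 (0.878 to 1.19) and Slc5a12 at 0.969 (0.633 to 1.43), with intervals that held 1, and Slc7a7 (3.49 (2.37 to 5.01)) and Slc5a8 (1.75 (1.03 to 2.79)) were higher at depth. These values were chosen after they were seen, and the difference between the libraries in them was not tested.

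Members were seen together in single barcodes. Of barcodes with 500 or more UMIs, 26.0% in saline and 63.3% in cisplatin held at least 3 different members, and 1.90% and 5.96% at least 10. The most in 1 barcode was 19 members in saline and 23 in cisplatin. Of these barcodes, 418 of 630 in saline and 256 of 3441 in cisplatin were endothelial-marked. At least 1 member UMI was held by 42.6% of endothelial-marked barcodes in saline and 91.0% in cisplatin. Among barcodes without that mark the shares were 82.5% and 92.2%. The part of cell mix and free RNA in these shares was not tested.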
